A study of Homo sapiens with 9 samples.

Results

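The 10 genes described here encode the main cytosolic defences against oxidants that work through thiols and iron: cystine import (SLC7A11), glutathione synthesis (GCLC, GCLM), glutathione recycling (GSR), glutathione conjugation (GSTP1), thioredoxin reduction (TXNRD1), ferritin (FTH1, FTL), haem breakdown (HMOX1) and quinone reduction (NQO1). They were taken by gene symbol from the 43424 rows of the deposited matrix. All 10 were found, and all 10 passed the filter on low values that left 14233 genes for testing. Messenger RNA had been profiled in OV90, ovarian cancer cells labelled sensitive and grown in MCDB-105 medium with serum, and in OV90CisR1 and OV90CisR2, lines labelled resistant and grown in the same medium with cisplatin. Each group had 3 libraries. No cisplatin concentration or exposure time was given, so resistance and the presence of the drug cannot be told apart. Nothing in the labels says whether the 3 libraries of a line were separate cultures, so the p-values measure the spread between these libraries only.

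NRF2, encoded by NFE2L2, is a transcription factor that KEAP1 holds in the cytoplasm and marks for degradation. Oxidants and electrophiles modify KEAP1, NRF2 then enters the nucleus, pairs with a small MAF protein and binds antioxidant response elements in front of genes such as these 10. Glutathione binds platinum drugs, and ferritin stores iron in a form that does not feed oxidation of lipids, which is why both are studied in cisplatin-treated tumours.

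RefSeq promoter windows (GRCh38.p14, 250 bases before to 50 after a gene start) were available for GCLC, GCLM, GSTP1, TXNRD1, NQO1 and FTL, with 2 starts for TXNRD1. The core of the antioxidant response element, searched as TGACNNNGC on both strands, occurred in the windows of GCLM, GSTP1 and TXNRD1 and in 13.3% of all 35116 windows. These 3 promoters are shown because they carry the same motif and belong to genes whose values are given in full below. Capitals mark the motif. The 250 bases before each start, 5′ to 3′ on the strand of the gene, read as follows.
GCLM, chr1:93909431-93909680, minus strand: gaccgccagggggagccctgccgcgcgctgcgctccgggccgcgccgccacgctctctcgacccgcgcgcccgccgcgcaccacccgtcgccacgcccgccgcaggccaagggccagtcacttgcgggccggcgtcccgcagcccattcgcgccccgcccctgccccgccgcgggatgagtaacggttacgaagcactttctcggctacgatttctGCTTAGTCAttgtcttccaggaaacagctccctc
TXNRD1, second start, chr12:104286782-104287031, plus strand: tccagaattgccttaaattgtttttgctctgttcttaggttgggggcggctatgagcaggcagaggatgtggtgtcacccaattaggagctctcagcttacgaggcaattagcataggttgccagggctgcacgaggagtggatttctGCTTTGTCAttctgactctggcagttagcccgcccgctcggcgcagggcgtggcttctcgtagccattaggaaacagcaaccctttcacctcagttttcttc
GSTP1, chr11:67583562-67583811, plus strand: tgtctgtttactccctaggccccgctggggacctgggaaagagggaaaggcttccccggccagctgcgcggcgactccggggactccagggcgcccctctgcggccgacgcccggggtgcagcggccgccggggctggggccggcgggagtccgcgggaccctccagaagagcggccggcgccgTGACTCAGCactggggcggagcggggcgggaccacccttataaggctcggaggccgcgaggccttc
The motif began at position -34 in GCLM, -102 at the second TXNRD1 start and -66 in GSTP1, where the first transcribed base is position 0. In GCLM and TXNRD1 it lay on the opposite strand. In GSTP1 it overlapped a match to the AP-1 site TGANTCA, which occurred in 7.71% of all windows. At the first TXNRD1 start the motif occurred at 2 positions, the first being -99. The windows of GCLC, NQO1 and FTL held no match, which says only that these letters are not in these windows.

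FTL carries a second kind of regulatory sequence, the iron-responsive element, a hairpin in the leader of the messenger RNA where iron regulatory proteins bind and block translation when iron is scarce. The letters of its loop, CAGTG preceded at a fixed distance by C, were searched in the 50 bases after each start, on the strand of the gene, and were found in 1.67% of windows. The element is shown, with the match in capitals, because it acts on protein output and not on the messenger RNA level measured here.
FTL, chr19:48965329-48965358, plus strand: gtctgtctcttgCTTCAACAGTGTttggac
The window of GSTP1 also held a match to these loop letters, at position 25.

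The libraries held 5825708 to 7607679 reads each, of which the 10 genes took 0.32% ± 0.0526 (SD, n = 3) in OV90, 0.245% ± 0.00785 in OV90CisR1 and 0.278% ± 0.00844 in OV90CisR2. OV90 replicate 3 and OV90CisR1 replicate 3 stood apart from their groups over all tested genes, with Pearson correlations of log2 values to the other libraries of their line of 0.955 to 0.957 and 0.941 to 0.942, against 0.978 to 0.982 for the remaining pairs. Results were therefore also computed without these 2 libraries. Because they were picked by their values in these data, p-values from fits without them may be too small and counts of calls too high. Ovarian carcinoma markers were low: of 14, 7 had 0 reads in OV90, among them PAX8 and MUC16, and the summed level of all 14 was 49.4 to 77.4 normalised reads in OV90, 70.2 to 115 in OV90CisR1 and 108 to 130 in OV90CisR2, whose libraries all lay above those of OV90. The 8 leukocyte markers summed to 25.2 to 71.0 in OV90, 71.9 to 142 in OV90CisR1 and 33.2 to 49.1 in OV90CisR2, and PTPRC had 3, 4 and 1 reads. The 10 fibroblast and endothelial markers summed to 2993 to 3808, 5635 to 10860 and 3224 to 4720, with 0 reads of PECAM1 and VWF in every library, and their part in the results below was not tested.

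In OV90CisR1, 4 of the 10 genes fell and none rose against OV90: FTH1, TXNRD1, GCLM and GSR, each to less than 1 in 2 of its OV90 level. Among all 14233 tested genes 7.29% fell and 8.54% rose. In OV90CisR2 none of the 10 passed the test against OV90, where 3.29% of all genes did, 2.35% upward and 0.941% downward. Between the resistant lines, FTH1 and TXNRD1 were higher in OV90CisR2 than in OV90CisR1, where 5.16% of all tested genes were, and none of the 10 was lower, where 4.9% were. The test was limma on log2(normalised reads + 1), with p-values adjusted over all tested genes and a threshold of 0.05. Both resistant lines were compared with the same 3 OV90 libraries, so the first 2 comparisons are not independent. In bulk RNA, fewer cells that express a gene and less RNA per cell cannot be told apart.

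**Figure D1:**
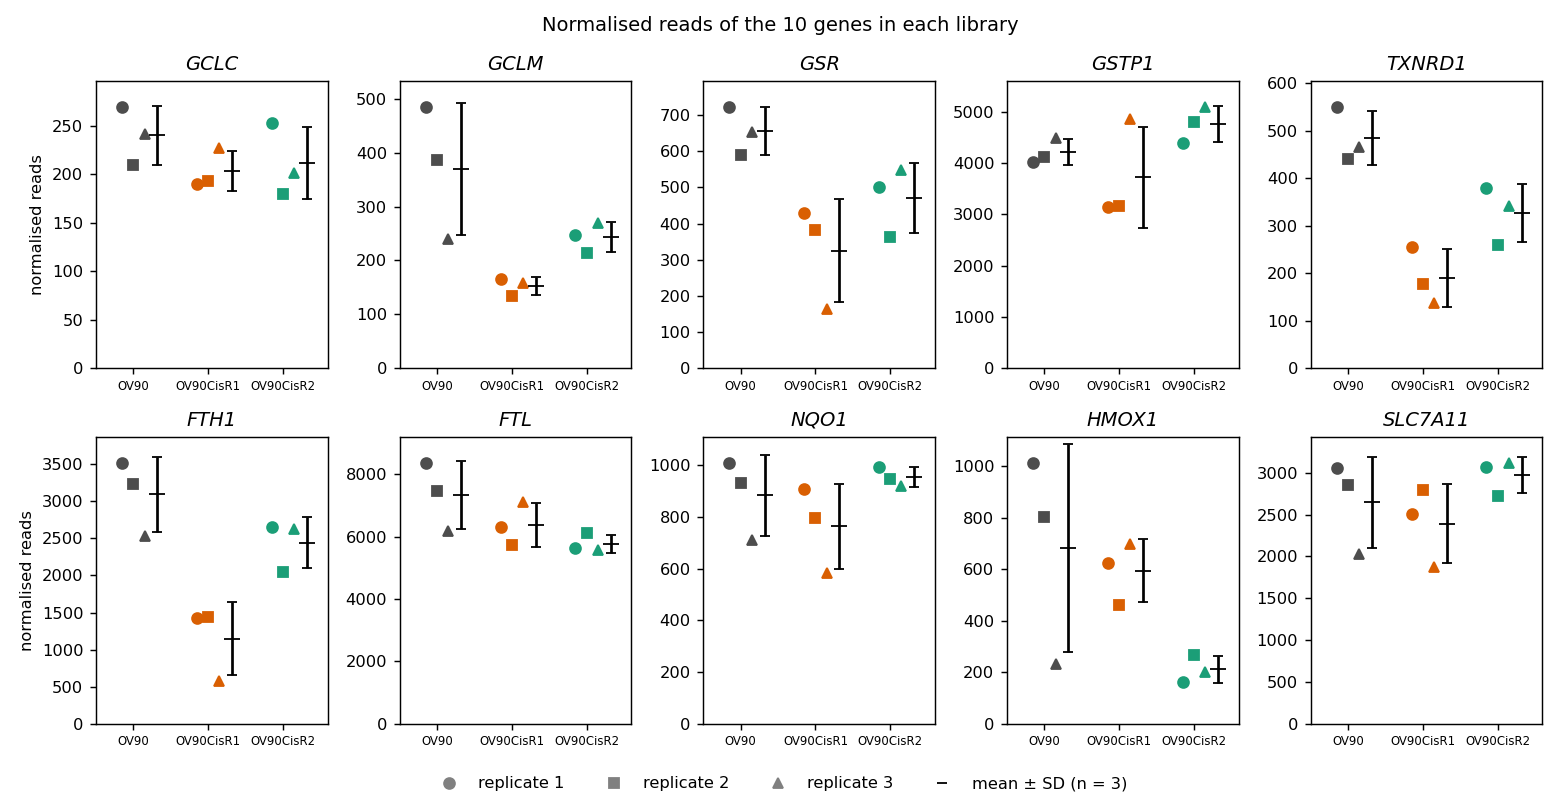
Normalised reads (vertical axis, linear, from 0) of the 10 genes in the 9 libraries, by group (horizontal axis), with a symbol for each replicate and the mean ± SD (n = 3) in black. FTH1, TXNRD1, GCLM and GSR lie lower in all 3 OV90CisR1 libraries than in any OV90 library, and HMOX1 in OV90 replicate 3 lies among the OV90CisR2 libraries.

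No difference passed the test for cystine import, the first step of the pathway. SLC7A11 (chromosome 4, 138164097 to 138242349), the cystine-glutamate antiporter that supplies cysteine for glutathione, had 3057, 2859 and 2031 normalised reads in OV90 replicates 1, 2 and 3. It had 2507, 2796 and 1872 in OV90CisR1 and 3063, 2727 and 3119.6 in OV90CisR2. The groups overlapped, and the lowest library of OV90 and of OV90CisR1 was replicate 3 in each. The log2 fold change was -0.15 (95% interval -0.55 to 0.26, limma adjusted p = 0.61) in OV90CisR1 and 0.18 (-0.22 to 0.59, limma adjusted p = 0.66) in OV90CisR2, so a 2-fold change in either direction lay outside both intervals. The antisense gene SLC7A11-AS1 overlaps the 3′ end of SLC7A11. It had 490 reads over all libraries against 24553 for SLC7A11, and how the counting treated strand is not given in the sources used here.

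Of the subunits of glutamate-cysteine ligase, the enzyme of the rate-limiting step of glutathione synthesis, 1 fell in OV90CisR1. GCLM (chromosome 1, 93885199 to 93909430), the modifier subunit that raises the activity of the enzyme, had 484, 385 and 240.2 normalised reads in OV90, 166, 134 and 158 in OV90CisR1 and 248, 213 and 269 in OV90CisR2. Every OV90CisR1 library lay below every library of the other lines, while OV90 replicate 3 lay among the OV90CisR2 libraries. GCLM was 2.33-fold lower in OV90CisR1 than in OV90, or -1.22 ± 0.23 (SE) in log2 units (limma adjusted p = 0.0075). In OV90CisR2 the log2 fold change was -0.55 ± 0.23 (limma adjusted p = 0.25), and it was -0.83 without OV90 replicate 3 (limma adjusted p = 0.018). OV90CisR2 exceeded OV90CisR1 by 0.67 ± 0.23 on the log2 scale without passing the test (limma adjusted p = 0.089), and passed it without OV90 replicate 3 (limma adjusted p = 0.019).

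GCLC (chromosome 6, 53497341 to 53545101), the catalytic subunit, had 269, 209 and 242 normalised reads in OV90, 190.1, 193 and 227 in OV90CisR1 and 253, 180.2 and 201 in OV90CisR2. All 3 groups overlapped. Its log2 fold change was -0.24 (95% interval -0.62 to 0.15, limma adjusted p = 0.36) in OV90CisR1 and -0.19 (-0.57 to 0.19, limma adjusted p = 0.62) in OV90CisR2. The log2 ratio of GCLC to GCLM within a library, which does not depend on library scaling, was -0.57 ± 0.50 (SD, n = 3) in OV90, 0.41 ± 0.19 in OV90CisR1 and -0.21 ± 0.22 in OV90CisR2. It was -0.84, -0.88 and 0.01 in OV90 replicates 1, 2 and 3, and 0.19, 0.53 and 0.52 in OV90CisR1, so these groups did not overlap. The exact two-sided permutation p of 0.1 for OV90CisR1 against OV90, and for OV90CisR2 against OV90CisR1, is the smallest that 3 against 3 libraries can give. It was 0.3 for OV90CisR2 against OV90 in the same exact test.

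GSR (chromosome 8, 30678066 to 30727846) encodes glutathione reductase, which returns oxidised glutathione to its reduced form with NADPH. It had 722, 589.8 and 653 normalised reads in OV90, 429.7, 382 and 164 in OV90CisR1 and 501, 363 and 549 in OV90CisR2. All 6 libraries of the resistant lines lay below the 3 OV90 libraries, and OV90CisR1 replicate 3 was the lowest by a wide margin. The fall in OV90CisR1 was 2.17-fold, or -1.12 ± 0.31 (SE) in log2 units (limma adjusted p = 0.032). It was -0.69 without OV90CisR1 replicate 3 (limma adjusted p = 0.022). The call was lost without OV90 replicate 1 (limma adjusted p = 0.103), OV90 replicate 2 (0.062), OV90 replicate 3 (0.062) or OV90CisR2 replicate 1 (0.053). In OV90CisR2 the log2 fold change was -0.49 ± 0.31 (limma adjusted p = 0.45).

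GSTP1 (chromosome 11, 67583812 to 67586653), a glutathione transferase that joins glutathione to electrophiles, had 4016, 4117 and 4498 normalised reads in OV90. It had 3142, 3172 and 4853 in OV90CisR1 and 4389, 4806 and 5090.3 in OV90CisR2. In OV90CisR1, replicates 1 and 2 lay below every other library of the study and replicate 3 lay above all of OV90. The log2 fold change in OV90CisR1 was -0.21 (95% interval -0.57 to 0.16, limma adjusted p = 0.41), and -0.41 without OV90CisR1 replicate 3, which passed the test (limma adjusted p = 0.035). Against OV90CisR1, OV90CisR2 had a log2 difference of 0.38 (limma adjusted p = 0.16), and 0.59 without OV90CisR1 replicate 3 (limma adjusted p = 0.009). In OV90CisR2 against OV90 it was 0.18 (-0.19 to 0.54, limma adjusted p = 0.64). GSTP1 carries the antioxidant response element core printed above, as do GCLM and TXNRD1.

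**Figure D2:**
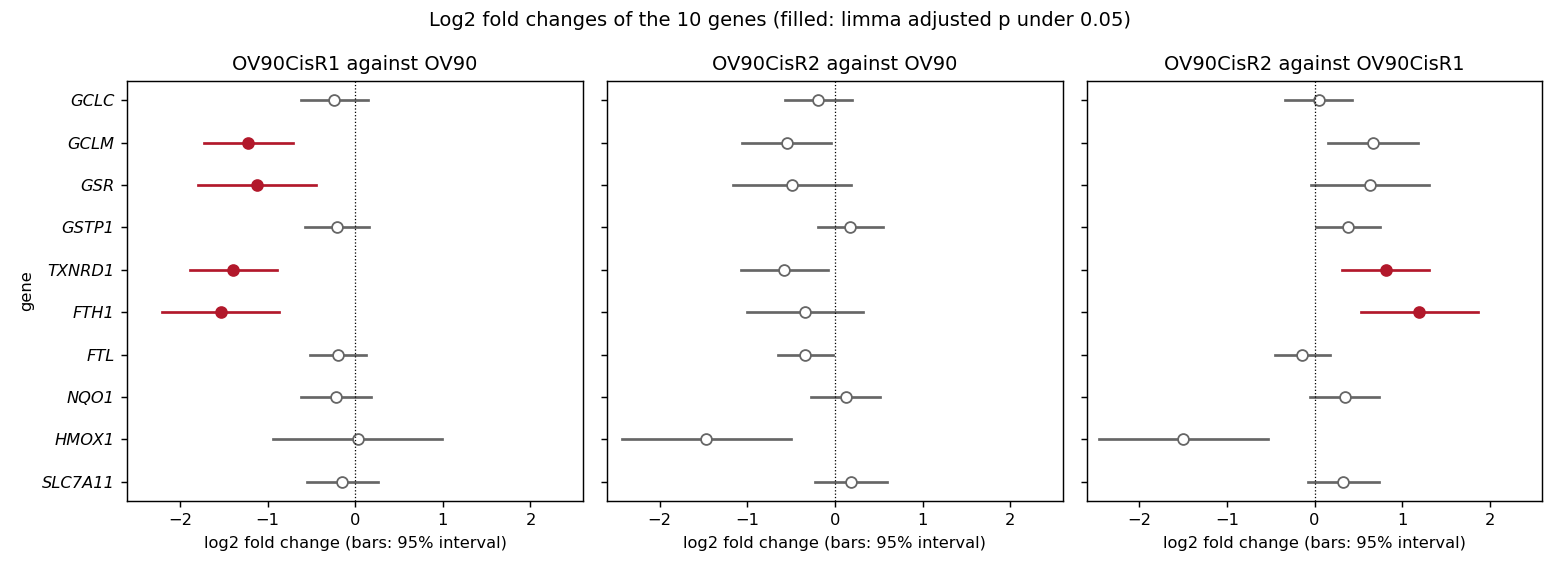
Log2 fold changes (horizontal axis, with 95% intervals as bars) of the 10 genes (vertical axis) in the 3 comparisons, filled where the limma adjusted p was under 0.05. FTH1, TXNRD1, GCLM and GSR are filled on the left in OV90CisR1 against OV90, none is filled in OV90CisR2 against OV90, and FTH1 and TXNRD1 are filled on the right in OV90CisR2 against OV90CisR1.

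TXNRD1 (chromosome 12, 104215779 to 104350307) encodes cytosolic thioredoxin reductase, a selenoprotein that keeps thioredoxin reduced. It had 550.1, 441 and 467 normalised reads in OV90, 256, 177 and 137 in OV90CisR1 and 381, 261 and 342 in OV90CisR2. The 3 lines did not overlap, OV90 being highest and OV90CisR1 lowest, although the highest OV90CisR1 library and the lowest OV90CisR2 library were close. TXNRD1 was 2.62-fold lower in OV90CisR1 than in OV90, or -1.39 ± 0.23 (SE) in log2 units (limma adjusted p = 0.0036). In OV90CisR2 it was -0.58 ± 0.23 (limma adjusted p = 0.21), a value that passed the test without OV90 replicate 3 and OV90CisR1 replicate 3 (-0.60, limma adjusted p = 0.019).

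The difference in TXNRD1 between the resistant lines was 0.81 ± 0.23 on the log2 scale (limma adjusted p = 0.044). This call was lost without OV90 replicate 1 (limma adjusted p = 0.059), OV90 replicate 2 (0.062), OV90CisR1 replicate 2 (0.097) or OV90CisR1 replicate 3 (0.072). It was also lost without OV90CisR2 replicate 1 (0.18), 2 (0.057) or 3 (0.16). TXNRD1 has at least 2 starts in RefSeq, and reads from the 3′ end do not tell transcripts from them apart.

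Ferritin is a shell of heavy chains, which oxidise iron, and light chains, which help it to mineralise. FTH1 (chromosome 11, 61964285 to 61967634), the heavy chain, had 3519, 3231 and 2536 normalised reads in OV90, 1429, 1435 and 575 in OV90CisR1 and 2655, 2041 and 2630.5 in OV90CisR2. The OV90CisR1 libraries lay below all others, and replicate 3 was at less than 1 in 2 of the level of the other OV90CisR1 libraries. FTH1 was 2.90-fold lower in OV90CisR1 than in OV90, or -1.54 ± 0.30 (SE) in log2 units (limma adjusted p = 0.0086), and -1.10 without OV90CisR1 replicate 3 (limma adjusted p = 0.0014).

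In OV90CisR2 the log2 fold change of FTH1 was -0.34 ± 0.30 (limma adjusted p = 0.61), and -0.48 without OV90 replicate 3 and OV90CisR1 replicate 3 (limma adjusted p = 0.004). OV90CisR2 exceeded OV90CisR1 by 1.20 ± 0.30 on the log2 scale (limma adjusted p = 0.031) and by 0.76 without OV90CisR1 replicate 3 (limma adjusted p = 0.011). That call was lost without OV90CisR2 replicate 1 (limma adjusted p = 0.12), 2 (0.063) or 3 (0.12).

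FTL (chromosome 19, 48965309 to 48966879), the light chain, had 8379, 7459.6 and 6194 normalised reads in OV90. It had 6307, 5723 and 7129 in OV90CisR1 and 5633, 6112 and 5588 in OV90CisR2. Only OV90CisR2 was separated from OV90, narrowly and on the lower side. The log2 fold change was -0.20 (95% interval -0.51 to 0.12, limma adjusted p = 0.36) in OV90CisR1 and -0.34 (-0.65 to -0.02, limma adjusted p = 0.25) in OV90CisR2. The latter passed the test without OV90 replicate 3 (-0.45, limma adjusted p = 0.047).

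The ratio of ferritin chains was lower in every OV90CisR1 library than in any other. The log2 ratio of FTH1 to FTL was -1.25, -1.21 and -1.29 in OV90 replicates 1, 2 and 3, -2.14, -2.00 and -3.63 in OV90CisR1, and -1.08, -1.58 and -1.09 in OV90CisR2. OV90CisR1 replicate 3 lay far below the others of its line. The group means were -1.25 ± 0.04 (SD, n = 3) in OV90, -2.59 ± 0.90 in OV90CisR1 and -1.25 ± 0.29 in OV90CisR2. The exact two-sided permutation p was 0.1 for OV90CisR1 against OV90 and for OV90CisR2 against OV90CisR1, the smallest possible here, and 1 for OV90CisR2 against OV90. Both ferritin genes have many near-identical copies: GENCODE release 29 names 25 for FTH1 and 16 for FTL, and 1 for GSTP1. The matrix lists 1 copy of each ferritin gene, with 14 and 0 reads in all, so reads from the other copies may have been dropped or counted elsewhere, and the levels of both genes are uncertain to that extent. FTH1 also overlaps BEST1 at its 3′ end, which had 17 reads over all libraries against 20727 for FTH1.

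**Figure D3:**
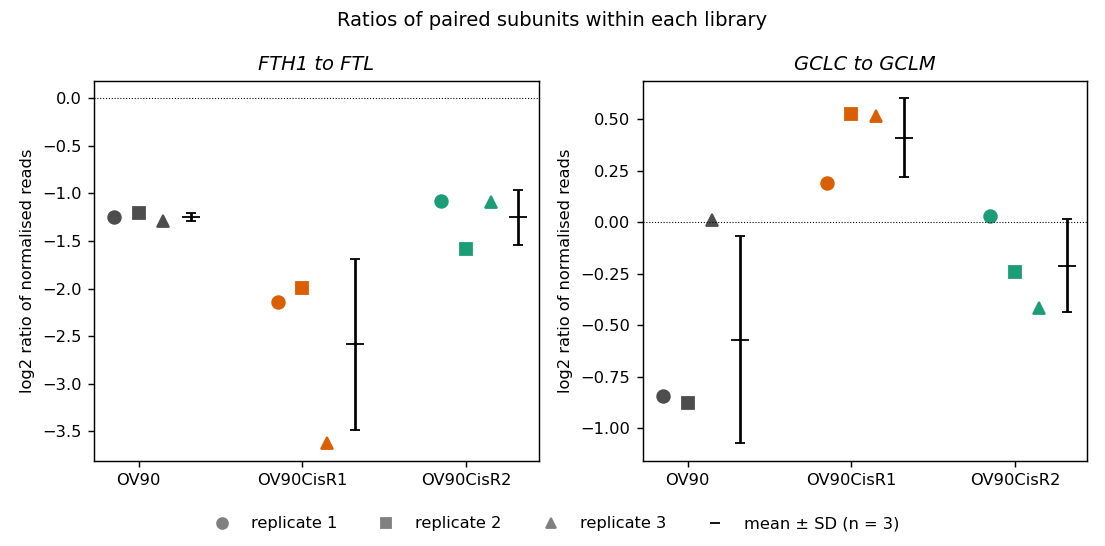
Log2 ratios of normalised reads (vertical axis) of FTH1 to FTL and of GCLC to GCLM in each library, by group (horizontal axis), with a symbol for each replicate and the mean ± SD (n = 3). OV90CisR1 lies below both other lines for the ferritin chains, with means of -2.59 against -1.25 and -1.25, and above them for the ligase subunits, with 0.41 against -0.57 and -0.21.

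HMOX1 (chromosome 22, 35381096 to 35394207) encodes haem oxygenase 1, which opens the haem ring and frees its iron. It had 1014, 805 and 233 normalised reads in OV90, 625, 461 and 699 in OV90CisR1 and 164, 269 and 202 in OV90CisR2. OV90 was split, with replicate 3 inside the range of OV90CisR2, and the 2 resistant lines did not overlap. The log2 fold change in OV90CisR2 was -1.47 ± 0.44 (SE, limma adjusted p = 0.105). It was called lower by edgeR (-1.70, adjusted p = 0.046), by DESeq2 (-1.69, adjusted p = 0.0012) and by limma without OV90 replicate 3 (-2.12, adjusted p = 0.00099).

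In OV90CisR1 the log2 fold change of HMOX1 was 0.03 (95% interval -0.94 to 0.99, limma adjusted p = 0.97), and -0.75 without OV90 replicate 3 and OV90CisR1 replicate 3, which passed the test (limma adjusted p = 0.01). The difference between OV90CisR2 and OV90CisR1 was -1.50 ± 0.44 (limma adjusted p = 0.054). It passed with edgeR (adjusted p = 0.039) and DESeq2 (adjusted p = 0.0033), and with limma without OV90 replicate 1 (adjusted p = 0.042) or OV90 replicate 3 (adjusted p = 0.0021).

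NQO1 (chromosome 16, 69709401 to 69726560), the quinone reductase whose level is widely read as a measure of NRF2 activity, had 1011, 932 and 709.7 normalised reads in OV90. It had 909, 798 and 585 in OV90CisR1 and 996, 946 and 922 in OV90CisR2. The OV90 range took in both resistant lines but for OV90CisR1 replicate 3, the lowest library, and OV90CisR2 lay just above OV90CisR1. Its log2 fold change was -0.22 (95% interval -0.61 to 0.18, limma adjusted p = 0.42) in OV90CisR1 and 0.13 (-0.27 to 0.52, limma adjusted p = 0.78) in OV90CisR2.

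Counted over the 10 genes, 4 had OV90CisR1 levels wholly below OV90, where 17.1% of tested genes had, and none had levels wholly above, where 17.5% had. In OV90CisR2, 3 of them, GSR, TXNRD1 and FTL, were wholly below OV90, where 13.5% of tested genes were, and none was wholly above, where 13.6% were. Without OV90 replicate 3 and OV90CisR1 replicate 3, limma called 7 of the 10 lower in OV90CisR1 and none higher, where 13.8% of all tested genes were lower and 14% higher. It then called 6 lower in OV90CisR2 and none higher, where 11.8% were lower and 14.4% higher. Between the resistant lines it then called 4 higher and 1 lower in OV90CisR2, where 14.7% and 12.1% of all were. With all 9 libraries, 4 of the 10 lay wholly higher in OV90CisR2 than in OV90CisR1 and 1, HMOX1, wholly lower, where 19.4% and 18.2% of tested genes did. The count of 0 calls for OV90CisR2 against OV90 with all 9 libraries stood beside 4 at an unadjusted p under 0.05 with limma, all lower, and beside 1 each with edgeR and DESeq2, which was HMOX1. In that comparison edgeR called 169 and DESeq2 346 of all 14233 tested genes lower. No share of all genes at the unadjusted threshold is given here, so the 4 cannot be set against one. The median log2 fold change of the 10 was -0.23 in OV90CisR1 and -0.34 in OV90CisR2, against -0.01 and 0.00 over all tested genes.

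Levels of FTH1, GSR, TXNRD1 and GCLM were correlated over the 9 libraries, with Pearson correlations of log2 values from 0.70 to 0.95 among them. NQO1 and SLC7A11 had 0.91, and FTL and HMOX1 had 0.85, while FTH1 and FTL had 0.08. FTH1, GSR, TXNRD1 and GCLM are the 4 genes called lower in OV90CisR1. Their shared difference between groups enters these correlations, which are therefore no separate result. All these values describe 9 libraries in 3 groups of which 2 libraries stand apart. OV90CisR1 replicate 3 differed from the mean of the other OV90CisR1 libraries by -1.31 for FTH1, -1.30 for GSR and -0.63 for TXNRD1 on the log2 scale, but by 0.62 for GSTP1. OV90 replicate 3 differed from the other OV90 libraries by -1.95 for HMOX1 and -0.84 for GCLM, but by 0.00 for GSR. Among tested genes of above-median level, the closest to GSR over the 9 libraries were KIAA1191 (r = 0.997) and GOLGA7 (0.996), to FTH1 CCZ1 (0.991) and TAB2 (0.981), and to TXNRD1 TIMM9 (0.984) and RTRAF (0.982). The closest to HMOX1 was CRBN (0.981), to GCLM PSMB9 (0.974), and to FTL SLC48A1 (0.97), a haem transporter. These genes were picked as the highest of many correlations over 9 libraries, and differences between groups enter their values too.

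**Figure D4:**
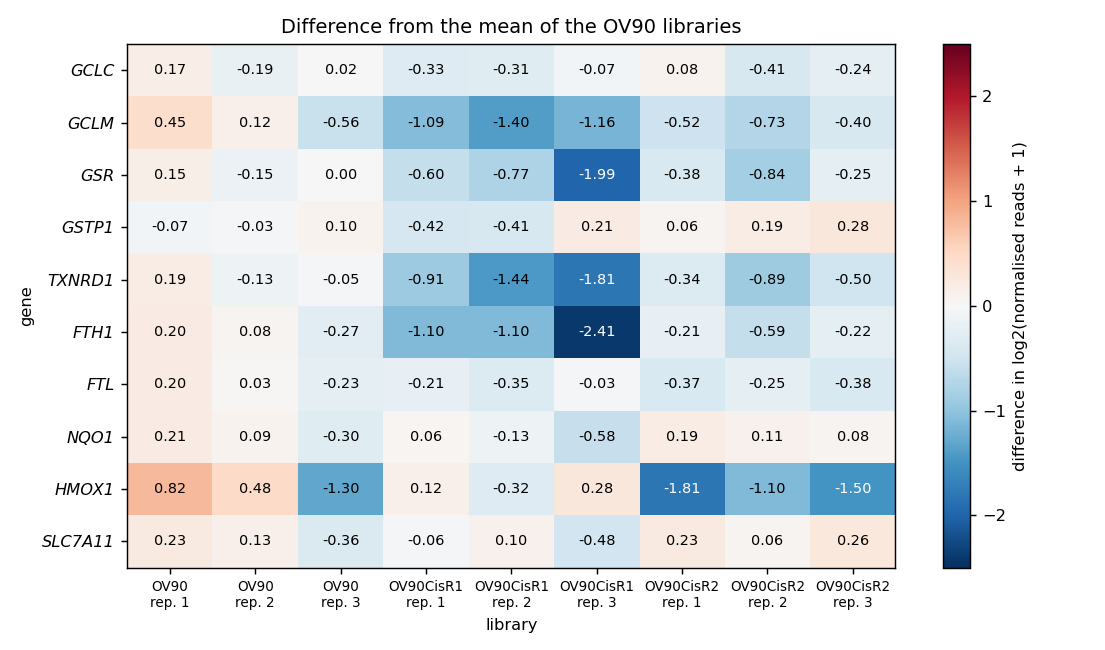
Difference of log2(normalised reads + 1) from the mean of the OV90 libraries (colour and printed value) for the 10 genes (rows) in the 9 libraries (columns). The deepest falls are FTH1 (-2.41), GSR (-1.99) and TXNRD1 (-1.81) in OV90CisR1 replicate 3, and HMOX1 in OV90CisR2 replicate 1 (-1.81).

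Of 20 tested genes for NRF2, its partners and its regulators, none rose and 1 fell in OV90CisR1, where 8.54% of all tested genes rose and 7.29% fell. Without the 2 libraries that stand apart, 2 rose and 3 fell in OV90CisR1, and 2 rose and 4 fell in OV90CisR2. In that fit 14% of all tested genes rose and 13.8% fell in OV90CisR1, and 14.4% and 11.8% in OV90CisR2. The single call with all 9 libraries was NFE2L3, a relative of NRF2, which fell from 156 ± 25.7 to 76.7 ± 28 normalised reads (SD, n = 3, limma adjusted p = 0.024, lost without OV90 replicate 1, 0.087). None of the 20 passed the limma test in OV90CisR2, with 1 up and 2 down before adjustment (p under 0.05), 0 by edgeR and 1 with DESeq2. In OV90CisR2 3.29% of all 14233 tested genes passed limma, edgeR called 506 and DESeq2 878, and no share at the unadjusted p is given here. NFE2L2, which is NRF2 itself, had 551 ± 73.5 normalised reads in OV90, 448 ± 32.2 in OV90CisR1 and 543 ± 27.1 in OV90CisR2 (limma adjusted p = 0.16 and 0.97). KEAP1, its inhibitor, had 537 ± 9.36, 694 ± 54.9 and 659 ± 37 (limma adjusted p = 0.058 and 0.23). BACH1, a repressor of HMOX1, had 83.4 ± 22.2, 56.5 ± 8.97 and 70.6 ± 5.53 (limma adjusted p = 0.14 and 0.71). NFE2L2, KEAP1 and BACH1 were named for their role, after their values were seen.

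Of 25 other NRF2 targets tested, 3 rose and 3 fell in OV90CisR1, beside 8.54% and 7.29% of all tested genes. Without the 2 libraries that stand apart 24 were tested, of which 4 rose and 7 fell in OV90CisR1, and 5 rose and 4 fell in OV90CisR2. In that fit 14% of all tested genes rose and 13.8% fell in OV90CisR1, and 14.4% and 11.8% in OV90CisR2. SRXN1, sulfiredoxin, which repairs peroxiredoxins, fell from 735 ± 118 to 345 ± 64 normalised reads (SD, n = 3), or -1.09 ± 0.17 (SE) in log2 units (limma adjusted p = 0.0027), and CAT, catalase, fell from 228 ± 56.6 to 116 ± 24.3 (limma adjusted p = 0.014, lost without OV90 replicate 1, 0.057). NQO2, a quinone reductase related to NQO1, rose from 37.5 ± 10.4 to 126 ± 13.4 (limma adjusted p = 0.0017), and EPHX1, microsomal epoxide hydrolase, rose from 42.8 ± 9.11 to 100.5 ± 10.6 (limma adjusted p = 0.0082). In OV90CisR2 none of the 25 passed the limma test, with 2 before adjustment (p under 0.05), both lower, 0 by edgeR and 1 with DESeq2. Of all 14233 tested genes 3.29% passed limma there, edgeR called 506 and DESeq2 878, and no share at the unadjusted p is given here. PIR, an iron-binding nuclear protein, had 298 ± 27.1 normalised reads in OV90, 166 ± 5.14 in OV90CisR1 and 289.8 ± 11.7 in OV90CisR2. Between the resistant lines its log2 difference was 0.80 ± 0.14 (limma adjusted p = 0.0052). Against OV90 it was -0.84 ± 0.14 in OV90CisR1 (limma adjusted p = 0.0034) and -0.04 ± 0.14 in OV90CisR2 (limma adjusted p = 0.92). NQO2 was lower in OV90CisR2 than in OV90CisR1 by -1.31 on the log2 scale (limma adjusted p = 0.008, lost without OV90CisR2 replicate 3, 0.051).

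Of 25 other genes of the thioredoxin and peroxiredoxin system, 2 rose and 2 fell in OV90CisR1, beside 8.54% and 7.29% of all tested genes. PRDX4, the peroxiredoxin of the endoplasmic reticulum, rose from 544 ± 61.7 to 1048 ± 51.5 normalised reads (SD, n = 3, limma adjusted p = 0.0016), and SRXN1 fell as given above. TXNDC12, a thioredoxin-like protein of the same compartment, rose by 0.65 ± 0.16 (SE) on the log2 scale (limma adjusted p = 0.02, lost without 4 of the 9 libraries in turn, 0.054 to 0.06). SEPHS2, which makes the selenium donor for selenoproteins such as TXNRD1, fell from 459 ± 61.7 to 299 ± 72.5 in OV90CisR1 (limma adjusted p = 0.044) and to 248 ± 14.9 in OV90CisR2 (limma adjusted p = 0.031), where it was the single call of this list with all 9 libraries. In OV90CisR2 2.35% of all tested genes rose and 0.941% fell with all 9 libraries. Without the 2 libraries that stand apart, 11 of the 25 rose and 3 fell in OV90CisR2, where 14.4% of all tested genes rose and 11.8% fell. In OV90CisR1 2 rose and 4 fell in that fit, beside 14% and 13.8% of all tested genes. The calls for SEPHS2 were lost without 6 and 5 of the 9 libraries in turn (0.067 to 0.15 and 0.081 to 0.17). TXN, thioredoxin, the substrate of TXNRD1, had 2537, 2188 and 2953 normalised reads in OV90, 1474, 1597 and 225 in OV90CisR1 and 2222, 1118 and 2557 in OV90CisR2 (limma adjusted p = 0.085 and 0.76). The OV90CisR1 libraries lay below those of OV90, and replicate 3 was by far the lowest. TXN was named for its role, after its values were seen.

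Of 24 tested genes for glutathione synthesis, breakdown and cystine supply other than the 10, 1 rose and 2 fell in OV90CisR1. Among all tested genes 8.54% rose and 7.29% fell there. HAGH and GLO1, which dispose of methylglyoxal with glutathione, fell by 0.76 ± 0.15 and 0.51 ± 0.15 on the log2 scale (limma adjusted p = 0.0083 and 0.045). The call for GLO1 was lost without 8 of the 9 libraries in turn (0.064 to 0.11). GGT7, of the gamma-glutamyltransferase family, rose from 11.3 ± 2.03 to 39.2 ± 16.6 normalised reads (SD, n = 3, limma adjusted p = 0.023, lost without 3 of the 9 libraries in turn, 0.058 to 0.062). Of 13 tested glutathione peroxidases and transferases, GSTA4, a transferase for lipid aldehydes, fell in OV90CisR1 from 381 ± 40.7 to 214 ± 35 (limma adjusted p = 0.0084) and none rose. In OV90CisR2, none of the 24 and none of the 13 passed the limma test, which 3.29% of all tested genes passed. At an unadjusted p under 0.05 there were 3 and 4, with edgeR 0 and 0, and with DESeq2 1 and 0. In this comparison edgeR called 506 and DESeq2 878 of all 14233 tested genes, and no share at the unadjusted p is given here. Without the 2 libraries that stand apart, 1 of the 24 rose and 4 fell in each resistant line. Of the 13 none then rose and 3 fell in OV90CisR1, and 1 rose and 3 fell in OV90CisR2. In that fit 14% of all tested genes rose and 13.8% fell in OV90CisR1, and 14.4% and 11.8% in OV90CisR2. Metallothioneins, thiol-rich metal binders, had 2 tested members of 9, of which MT1X fell in OV90CisR1 from 443 ± 44.8 to 266 ± 25.2 (limma adjusted p = 0.038, lost without 6 of the 9 libraries in turn, 0.054 to 0.12).

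Of 36 tested genes for iron storage, uptake and haem other than the 10, 2 rose and 2 fell in OV90CisR1. Among all tested genes 8.54% rose and 7.29% fell there. SLC40A1, ferroportin, the iron exporter, had 138, 77.9 and 81.8 normalised reads in OV90, 27.9, 31.8 and 10.1 in OV90CisR1 and 37.9, 30.6 and 39.6 in OV90CisR2. Both resistant lines lay below OV90. The fall in OV90CisR1 was 4.42-fold, or -2.14 ± 0.40 (SE) in log2 units (limma adjusted p = 0.0068). TFRC, the transferrin receptor that takes up iron, had 981, 854 and 1301 normalised reads in OV90, 1926, 2135 and 1246 in OV90CisR1 and 1052, 857 and 1060.1 in OV90CisR2. It was higher in OV90CisR1 than in OV90 by 0.74 ± 0.21 on the log2 scale (limma adjusted p = 0.038), although OV90 replicate 3 and OV90CisR1 replicate 3 overlapped, and lower in OV90CisR2 than in OV90CisR1 by -0.81 ± 0.21 (limma adjusted p = 0.037). The calls for TFRC were lost without 7 and 6 of the 9 libraries in turn (0.052 to 0.12 and 0.054 to 0.13). SLC25A37, a mitochondrial iron importer, rose by 0.78 ± 0.14 on the log2 scale in OV90CisR1 (limma adjusted p = 0.0066). PCBP1, an iron chaperone that loads ferritin, fell by 0.63 ± 0.18 (limma adjusted p = 0.036, lost without 6 of the 9 libraries in turn, 0.052 to 0.089). None of the 36 passed the limma test in OV90CisR2 against OV90, with 3 before adjustment (p under 0.05), 1 by edgeR and 1 with DESeq2. There edgeR called 506 and DESeq2 878 of all 14233 tested genes, and no share at the unadjusted p is given here. Of all tested genes 3.29% passed the limma test in OV90CisR2. With the 2 libraries that stand apart left out, 6 rose and 8 fell in OV90CisR1, and 2 rose and 6 fell in OV90CisR2. In that fit 14% of all tested genes rose and 13.8% fell in OV90CisR1, and 14.4% and 11.8% in OV90CisR2.

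Of 21 tested regulators of ferroptosis, the cell death that follows oxidation of membrane lipids, 3 rose and 2 fell in OV90CisR1. Among all tested genes 8.54% rose and 7.29% fell there. SAT1, which breaks down polyamines, rose from 274 ± 73.6 to 1048 ± 58.6 normalised reads (SD, n = 3, limma adjusted p = 0.00018), and GCH1, which makes the antioxidant tetrahydrobiopterin, fell by 1.71 ± 0.42 on the log2 scale (limma adjusted p = 0.022, lost without OV90 replicate 1, 0.08, or OV90 replicate 2, 0.067). POR, cytochrome P450 reductase, rose by 0.88 ± 0.21 (limma adjusted p = 0.019, lost without OV90 replicate 2, 0.062), and ACSL4, which loads polyunsaturated fatty acids for membranes, fell by 0.73 ± 0.21 (limma adjusted p = 0.038, lost without 6 of the 9 libraries in turn, 0.06 to 0.14). None of the 21 passed in OV90CisR2 by limma, with 8 before adjustment (p under 0.05), 2 by edgeR and 3 with DESeq2. Over all 14233 tested genes edgeR called 506 and DESeq2 878 there, and no share at the unadjusted p is given here. Of all tested genes 3.29% passed the limma test in OV90CisR2. When the 2 libraries that stand apart were left out, 4 rose and 4 fell in OV90CisR1, and 3 rose and 7 fell in OV90CisR2. In that fit 14% of all tested genes rose and 13.8% fell in OV90CisR1, and 14.4% and 11.8% in OV90CisR2.

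The list for ATF4, the amino acid stress factor that also drives SLC7A11, and its targets held 22 tested genes. Of these, 1 rose and 7 fell in OV90CisR1, and none rose and 2 fell in OV90CisR2. Among all tested genes 8.54% rose and 7.29% fell in OV90CisR1, and 2.35% rose and 0.941% fell in OV90CisR2. In OV90CisR2 9 of the 22 were lower before adjustment (p under 0.05) and 1 higher, while edgeR called 4 lower and DESeq2 7. In OV90CisR1 edgeR called 9 lower and DESeq2 10. Of all 14233 tested genes edgeR called 169 and DESeq2 346 lower in OV90CisR2, and 1002 and 1326 in OV90CisR1. No share of all genes at the unadjusted p is given here. Without the 2 libraries that stand apart, limma called 15 of the 22 lower and 2 higher in OV90CisR1, and 17 lower and 1 higher in OV90CisR2. In that fit 13.8% of all tested genes fell and 14% rose in OV90CisR1, and 11.8% and 14.4% in OV90CisR2. PSAT1, of serine synthesis, fell from 458 ± 147 to 136 ± 45 in OV90CisR1 (limma adjusted p = 0.0057), and SLC7A5, an amino acid transporter, rose by 0.94 ± 0.19 on the log2 scale (limma adjusted p = 0.01). DDIT4, a brake on mTOR, fell from 82 ± 44 to 15.4 ± 1.25 in OV90CisR2 (limma adjusted p = 0.0068, lost without OV90CisR2 replicate 2, 0.0502). ATF3, a stress-induced transcription factor, fell by 2.36 ± 0.54 on the log2 scale in OV90CisR1 (limma adjusted p = 0.016, lost without OV90 replicate 1 or 2, 0.059 to 0.069). VLDLR, a lipoprotein receptor, fell by 1.23 ± 0.29 in OV90CisR2 (limma adjusted p = 0.047, lost without 7 of the 9 libraries in turn, 0.061 to 0.21). The median log2 fold change of the ATF4 list was -0.60 in OV90CisR1 and -0.55 in OV90CisR2.

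Between the resistant lines, some lists also held calls. Against OV90CisR1, 5.16% of all tested genes were higher and 4.9% lower in OV90CisR2. Of 24 glutathione synthesis genes 2 were higher and 0 lower there, and of 13 peroxidases and transferases 2 and 1. Of 25 thioredoxin genes 1 was higher and 2 lower, and of 36 iron genes 0 and 3. Of 25 other NRF2 targets 2 were higher and 1 lower, and of 21 ferroptosis genes 0 and 2. The lists for NRF2, metallothioneins and ATF4 held no call. GPX1, a glutathione peroxidase, GSTA4 and GLRX, a glutaredoxin, were higher in OV90CisR2 than in OV90CisR1, by 0.73 ± 0.18, 0.70 ± 0.16 and 1.52 ± 0.40 (SE) on the log2 scale (limma adjusted p = 0.03, 0.023 and 0.037). GLO1, TXNDC17, a thioredoxin-like protein, and SOD1, superoxide dismutase, were higher by 0.58 ± 0.15, 0.87 ± 0.21 and 0.49 ± 0.13 (limma adjusted p = 0.035, 0.028 and 0.041). SAT1, PRDX4 and TXNDC12 were lower in OV90CisR2, with log2 differences of -1.22 ± 0.19, -0.68 ± 0.13 and -0.55 ± 0.16 (limma adjusted p = 0.0031, 0.0092 and 0.049), as were PTGES, a prostaglandin synthase, and SLC11A2, an iron transporter, with -1.09 ± 0.25 and -0.74 ± 0.15 (limma adjusted p = 0.02 and 0.011). Of the 11 calls just named, that of SAT1 held without each of the 9 libraries in turn. The others were lost without 2 to 7 of the libraries, with limma adjusted p up to 0.17. Among the marker lists, COL3A1 rose in OV90CisR1 by 1.43 ± 0.25, LUM and DCN rose in OV90CisR2 by 3.36 ± 0.52 and 2.51 ± 0.27, and KRT8 rose in OV90CisR2 by 3.32 ± 0.76 against OV90 (limma adjusted p = 0.0053, 0.0047, 0.00032 and 0.04). DCN rose in OV90CisR1 by 1.08 ± 0.27 (limma adjusted p = 0.022), and CD68 was lower in OV90CisR2 than in OV90CisR1, with -1.42 ± 0.37 (limma adjusted p = 0.036). The calls of DCN in OV90CisR1, CD68 and KRT8 were lost without 3, 5 and 7 of the 9 libraries in turn. EPCAM, the only other tested carcinoma marker, went the other way from KRT8 in OV90CisR2, with -0.32 (limma adjusted p = 0.57). COL1A1, alone of the 5 tested fibroblast and endothelial markers, was lower in both lines, with -0.35 in OV90CisR1 and -0.15 in OV90CisR2 (limma adjusted p = 0.45 and 0.85).

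**Figure D5:**
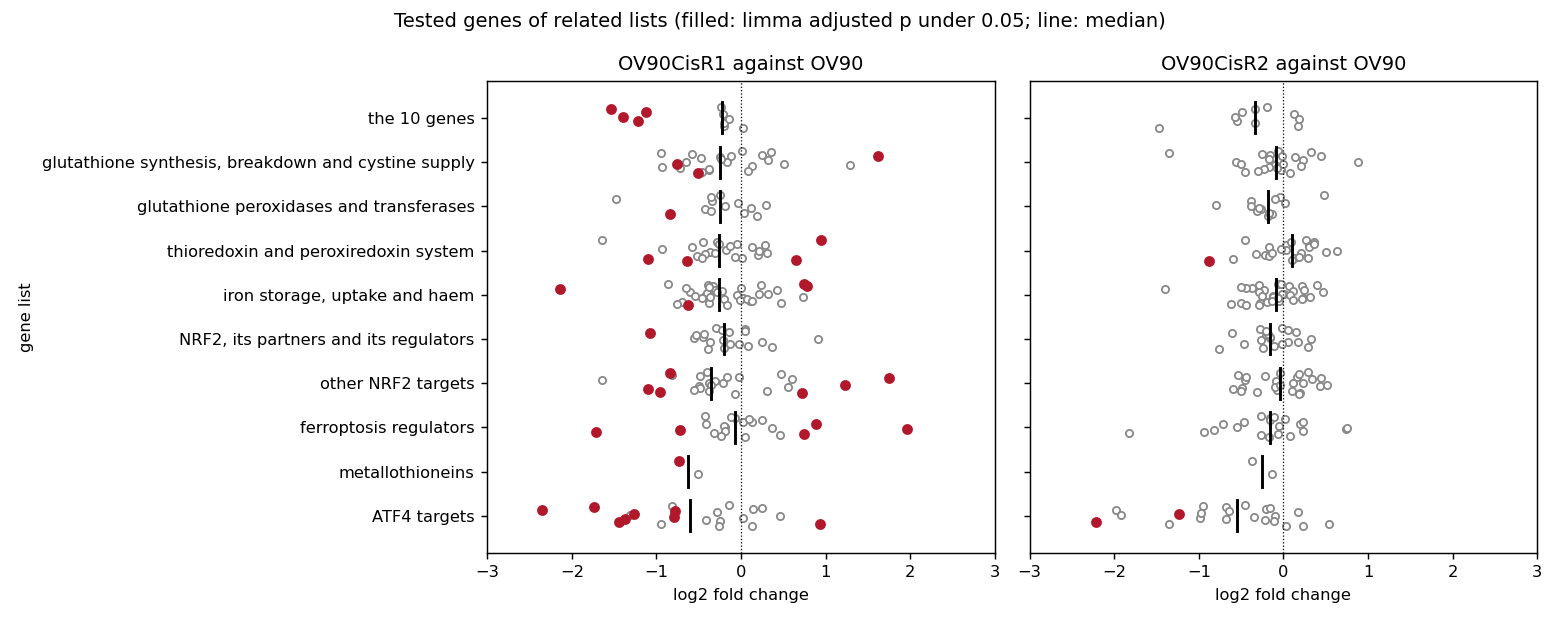
Log2 fold changes (horizontal axis) of the tested genes of each list (vertical axis) in OV90CisR1 and OV90CisR2 against OV90, filled where the limma adjusted p was under 0.05, with a line at the list median. In OV90CisR1 the 4 filled genes of the top row all lie on the left. So does the 1 filled gene in each list for glutathione peroxidases and transferases, NRF2 and its partners, and metallothioneins. The lists for glutathione synthesis, thioredoxin, iron, other NRF2 targets, ferroptosis and ATF4 targets have filled genes on both sides.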

How the data were processed

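The authors deposited 1 matrix of normalised reads per gene symbol for 9 libraries, a signal on the scale of reads. Per the labels' protocols, libraries were made with the QuantSeq 3′ mRNA kit and sequenced single-end. The tools named per the submitters' processing notes are Bowtie2, bedtools and edgeR, with GRCh38 as the build. How reads were counted, on which annotation and with which strand setting was not stated. In every column the nonzero values, 100% of them, equalled a whole number times the lowest one (tolerance 1e-06), and the count tests ran on those recovered whole reads.

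Genes at 1 CPM or more in at least 3 of 9 libraries were tested with limma 3.58.1 (R 4.3.3) after taking log2(value + 1), with 1 mean per group over all 9 libraries and the variance modelled as a trend on level. Benjamini-Hochberg adjustment ran over 14233 genes. Fold changes on this scale understate those of low genes. The procedure was tested on simulated data in which no library stood apart from its group, so that test does not cover the 2 libraries that do here. Alternatives were other pseudocounts, filters, scalings and variance models, fits on 2 groups, a replicate block, libraries left out, and edgeR 4.0.16 and DESeq2 1.42.0 on recovered reads, where edgeR called 2286, 506 and 1515 genes in the 3 comparisons. Ratios used exact permutation tests in scipy 1.17.1.

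The genes and lists were chosen with earlier results of these data known. All 10 genes are named, and from each list up to 2 rises and 2 falls past the threshold in each comparison. Any other list genes or values were added after the values were seen. No molecular identifiers are mentioned, so reads may repeat molecules. The lowest count behind any of the 10 values was 122 reads.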

Additional observations from a re-analysis of the deposited data

Results flagged for a closer look

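The change from OV90 differed between the resistant lines for FTH1 and TXNRD1, by the direct limma test of OV90CisR2 against OV90CisR1. The difference was 1.20 ± 0.30 (SE) on the log2 scale for FTH1 (limma adjusted p = 0.031), which was higher in all 3 OV90CisR2 libraries than in any OV90CisR1 library. For TXNRD1 it was 0.81 ± 0.23 (limma adjusted p = 0.044), with the same separation. Without OV90 replicate 3 and OV90CisR1 replicate 3 the differences were 0.76 (limma adjusted p = 0.00011) and 0.60 (limma adjusted p = 0.019). Those 2 libraries were picked by their values in these data, so these p-values may be too small. Both calls depended on single libraries. TXNRD1 lost its call in 10 of 23 alternatives, 7 of them among the 9 that leave out 1 library, with adjusted p up to 0.18. FTH1 lost its call in 5 of 23, among them those without any 1 of the OV90CisR2 libraries, with adjusted p up to 0.12.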

How the results depend on the processing

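Over 23 alternatives, the falls of FTH1, TXNRD1 and GCLM in OV90CisR1 kept direction and call, with log2 fold changes from -1.76 to -1.10, -1.63 to -1.18 and -1.53 to -0.995. That of GSR lost its call in 6 (adjusted p up to 0.1). The number of the 10 genes called in OV90CisR1 was 4, and 7 without OV90 replicate 3 and OV90CisR1 replicate 3. In OV90CisR2 it was 0, but 4 with array quality weights, 1 with edgeR, 1 with DESeq2 and 6 without those 2 libraries. Calls over all tested genes there went from 468 to 3538 with those weights, 506 with edgeR, 878 with DESeq2 and 3646 without those 2 libraries. Leaving out 1 library gave 3 to 5, 0 to 3 and 0 to 4 of the 10 in the 3 comparisons. Between the resistant lines the number of the 10 was 2. It was 1 with a pseudocount of 0.1, 0 without a variance trend, and 5 with quality weights or without those 2 libraries. Calls over all tested genes were 1433 there, 1266 with that pseudocount and 1071 without the trend. They were 4226 with weights and 3729 without the 2 libraries. HMOX1 in OV90CisR1 (0.03) changed sign in 8 of 23 alternatives. Among them it was -0.012 with quantile scaling, -0.61 with quality weights, -0.19 with edgeR, -0.20 with DESeq2 and -0.75 without the 2 libraries. With 1 library left out it ranged from -0.62 to 0.44. With 1 library left out, SLC7A11 in OV90CisR1 ranged from -0.33 to 0.021, changing sign without OV90CisR1 replicate 3. NQO1 in OV90CisR2 ranged from -0.025 to 0.23, changing sign without OV90 replicate 3, also where OV90CisR1 replicate 3 was left out too. GCLC between the resistant lines ranged from -0.089 to 0.15, changing sign without OV90CisR2 replicate 1. The ratio of FTH1 to FTL in OV90CisR2 against OV90 was 0.00 and ranged from -0.086 to 0.16 with 1 library left out. The cause was not tested. The looser motif TGANNNNGC occurred in 41.8% of promoter windows, against 13.3%.

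Samples with the same replicate number did not deviate together (correlations from -0.31 to 0.09), and with a replicate block 4, 0 and 2 of the 10 genes were called. Counts over all genes moved by over 1.5 times: 2252 in OV90CisR1 against 771 fitted on 2 groups, 939 without OV90 replicate 1, 1360 without OV90 replicate 2, 4220 with quality weights and 3879 without the 2 libraries; 468 in OV90CisR2 against 287 with the block, 878 with DESeq2, 3538 with weights, 3646 without the 2 libraries, 224, 274 and 1309 without OV90 replicates 1, 2 and 3, 1084 without OV90CisR1 replicate 3, and 133 to 140 without 1 OV90CisR2 replicate; 1433 between the resistant lines against 875 with the block, 4226 with weights, 3729 without the 2 libraries, 2324 without OV90 replicate 3, 933 without OV90CisR1 replicate 1, and 391 to 601 without 1 OV90CisR2 replicate.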
